A study of Mus musculus with 10 samples.

Results

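The genes examined here belong to families of chromatin remodelers and of enzymes that modify histones or DNA. Not every member of such a family need act on chromatin. They were chosen by symbol, as the *Smarc*, *Arid1*, *Arid2*, *Chd*, *Ino80*, *Kdm*, *Hdac*, *Sirt*, *Kmt2*, *Setd*, *Ezh*, *Dnmt* and *Tet* genes, and by a mean of at least 50 counts in wildtype cells. Of the 43346 genes in the count table, 94 had such a symbol and 84 of these also passed the limit. The member closest above it was *Dnmt3b*, with a wildtype mean of 94.75 counts, and the gene closest below it was *Chd5*, with 49.25 counts. The other 9 genes below the limit had wildtype means of 9 counts or fewer, among them *Smarca1*, *Dnmt3l*, *Kdm4d* and *Kdm5d*.

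O9-1 cells are a tetraploid mouse line of cranial neural crest origin. Polyadenylated RNA was sequenced from 4 biologically independent wildtype samples, 3 Kat5 ko clones and 3 Ep400 ko clones. All were kept under the same conditions on Matrigel, in medium conditioned by inactivated STO fibroblasts and supplemented with FGF2. The clones were made with CRISPR/Cas9 and each grew from a single sorted cell, so that each ko library stands for 1 clone. According to the study's account of its editing, all *Kat5* alleles carried insertions or deletions that shift the reading frame, ahead of the part that encodes the acetyltransferase domain. In *Ep400*, whose edit lies at the ATP binding site, this held for all alleles of clone Ep400/1, while clones Ep400/2 and Ep400/3 also kept alleles with short in-frame deletions.

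Kat5 and Ep400 are the acetyltransferase and the ATPase of the Tip60/Ep400 complex, which acetylates histones and exchanges histone H2A variants. Other remodelers are likewise driven by ATPases of the SNF2 family. BAF and PBAF complexes slide or evict nucleosomes around Smarca4 or Smarca2, ISWI complexes space nucleosomes with Smarca5, the CHD group includes the NuRD ATPases Chd3 and Chd4, and INO80 acts on H2A.Z nucleosomes. Histone deacetylases, methyltransferases and demethylases set and remove marks on histone tails, and Dnmt and Tet enzymes write and oxidize DNA methylation. Several of these genes, *Chd7*, *Kmt2d*, *Kdm6a*, *Arid1b* and *Smarca4* among them, are known for human syndromes with craniofacial features.

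The libraries held 30968945 to 48301792 counts on genes, of which mitochondrial genes took 0.893% to 3.24%. Levels are given as CPM, counts scaled to a common library size with TMM factors over the 10 libraries. *Kat5* was at 49.2 to 58.3 CPM in wildtype cells and at 16.3 to 23.0 CPM in the Kat5 ko clones, and *Ep400* was at 158 to 168 CPM in wildtype cells and at 54.4 to 60.4 CPM in the Ep400 ko clones. The crest and mesenchyme genes *Twist1*, *Prrx1* and *Pdgfra* were at 45.3 CPM or higher in all libraries, whereas *Sox10* and *Foxd3*, which mark early crest cells, were at 0 in all libraries. Others of the same list of 19 genes were low or uneven. *Pax3* was at most at 0.657 CPM in wildtype and Kat5 ko libraries, and *Tfap2b* ranged from 0 to 20.6 CPM over all libraries. Clone Kat5/1 stood apart, with 687 CPM summed over 6 smooth muscle genes against 0.457 to 57.2 CPM in the other libraries. Among the Kat5 ko clones, the chi-square per degree of freedom between libraries was 243 and 258 for the pairs with this clone and 94.5 for the other pair, and it was 156 to 257 among the Ep400 ko clones.

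RefSeq promoter windows of the GRCm38.p6 assembly, covering the 250 bases before the start of transcription, were found for 64 of the 84 genes. A GC box (GGGCGG on either strand) was present in 68.8% of these windows, against 32.9% of the windows of all 27025 genes, and the median number of CpG dinucleotides was 19.5 against 6. The CCAAT box (CCAAT) was present in 34.4% against 34.5%, the TATA box (TATAAA) in 4.69% against 13%, the E-box (CACGTG) in 4.69% against 6.05% and the NRF1 core (CGCATGCG) in 4.69% against 1.58%. The CRE (TGACGTCA) was in 0 of the 64 windows and in 1.62% of all windows. The 2 sets are unlike: the 84 genes had to reach 50 counts in wildtype cells, and the 27025 were not chosen by expression. For the 64 genes the start nearest the gene start in GENCODE M21 was taken, and for the 27025 the first one listed. The shares can therefore not be read as a trait particular to chromatin genes. All motifs were sought on both strands, and none of them contains another. The windows of the ATPase genes *Smarca2* and *Smarca5*, which moved in opposite directions in the Ep400 ko clones, and of the *Smarca2* paralog *Smarca4* are shown, limited to bases upstream of the genes as GENCODE M21 annotates them. Capitals mark the GC box as it reads on the strand of the gene. They are chr19:26604910-26605049 on the plus strand for *Smarca2*, chr9:21615919-21616168 on the plus strand for *Smarca4* and chr8:80739498-80739709 on the minus strand for *Smarca5*.
Smarca2: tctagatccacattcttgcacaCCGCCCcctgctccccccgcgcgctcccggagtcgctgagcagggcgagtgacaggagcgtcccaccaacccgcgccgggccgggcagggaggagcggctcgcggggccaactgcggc
Smarca4: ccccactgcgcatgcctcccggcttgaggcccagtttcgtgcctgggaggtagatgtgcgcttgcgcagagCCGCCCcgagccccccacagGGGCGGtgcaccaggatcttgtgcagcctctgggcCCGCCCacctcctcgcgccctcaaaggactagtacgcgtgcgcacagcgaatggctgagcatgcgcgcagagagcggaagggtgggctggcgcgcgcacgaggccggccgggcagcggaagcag
Smarca5: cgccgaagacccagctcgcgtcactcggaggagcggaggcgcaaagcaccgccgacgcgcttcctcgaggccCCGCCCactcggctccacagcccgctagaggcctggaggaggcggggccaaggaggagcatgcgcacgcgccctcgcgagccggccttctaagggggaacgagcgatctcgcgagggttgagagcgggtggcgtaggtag
In the stretches shown, the GC box began 228 bases before the RefSeq start in *Smarca2* and 178 bases before it in *Smarca5*. In *Smarca4* it began 179, 159 and 124 bases before that start. The RefSeq start lies 110 bases inside the gene as GENCODE M21 annotates it for *Smarca2* and 38 bases inside it for *Smarca5*. The stretches shown held 16 CpG dinucleotides in 140 bases, 28 in 212 bases and 25 in 250 bases in that order.

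In wildtype cells, levels per exon length (RPKM) were highest for *Setd8*, which encodes the enzyme that monomethylates histone H4 at lysine 20, with 63.8 ± 5.48 RPKM (SD, n = 4). The NuRD ATPases *Chd4* and *Chd3* followed with 59.5 ± 5.17 and 53.4 ± 6.65 RPKM, the BAF ATPase *Smarca4* with 41.3 ± 3.31 RPKM and the deacetylase *Hdac1* with 39.4 ± 0.404 RPKM. The SDs of neighbours in this order overlapped, except between *Chd3* and *Smarca4*. *Setd4*, *Tet1* and *Dnmt3b* had the lowest levels, with 0.772 ± 0.0838, 0.512 ± 0.236 and 0.502 ± 0.0481 RPKM. The summed level of all 84 genes was 7280 to 8490 CPM in wildtype cells, 7542 to 8891 CPM in the Kat5 ko clones and 5876 to 6544 CPM in the Ep400 ko clones. The Ep400 ko clones lay below all other libraries. By role, they lay below all wildtype libraries for the CHD genes (868 to 1020 against 1284 to 1569 CPM), the BAF genes (1253 to 1310 against 1397 to 1620 CPM) and the SETD genes (720 to 897 against 1025 to 1069 CPM), and overlapped with them for the sirtuins (157 to 203 against 142 to 172 CPM). Fewer transcripts per cell and a different mixture of cells cannot be told apart in such bulk samples.

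**Figure D1:**
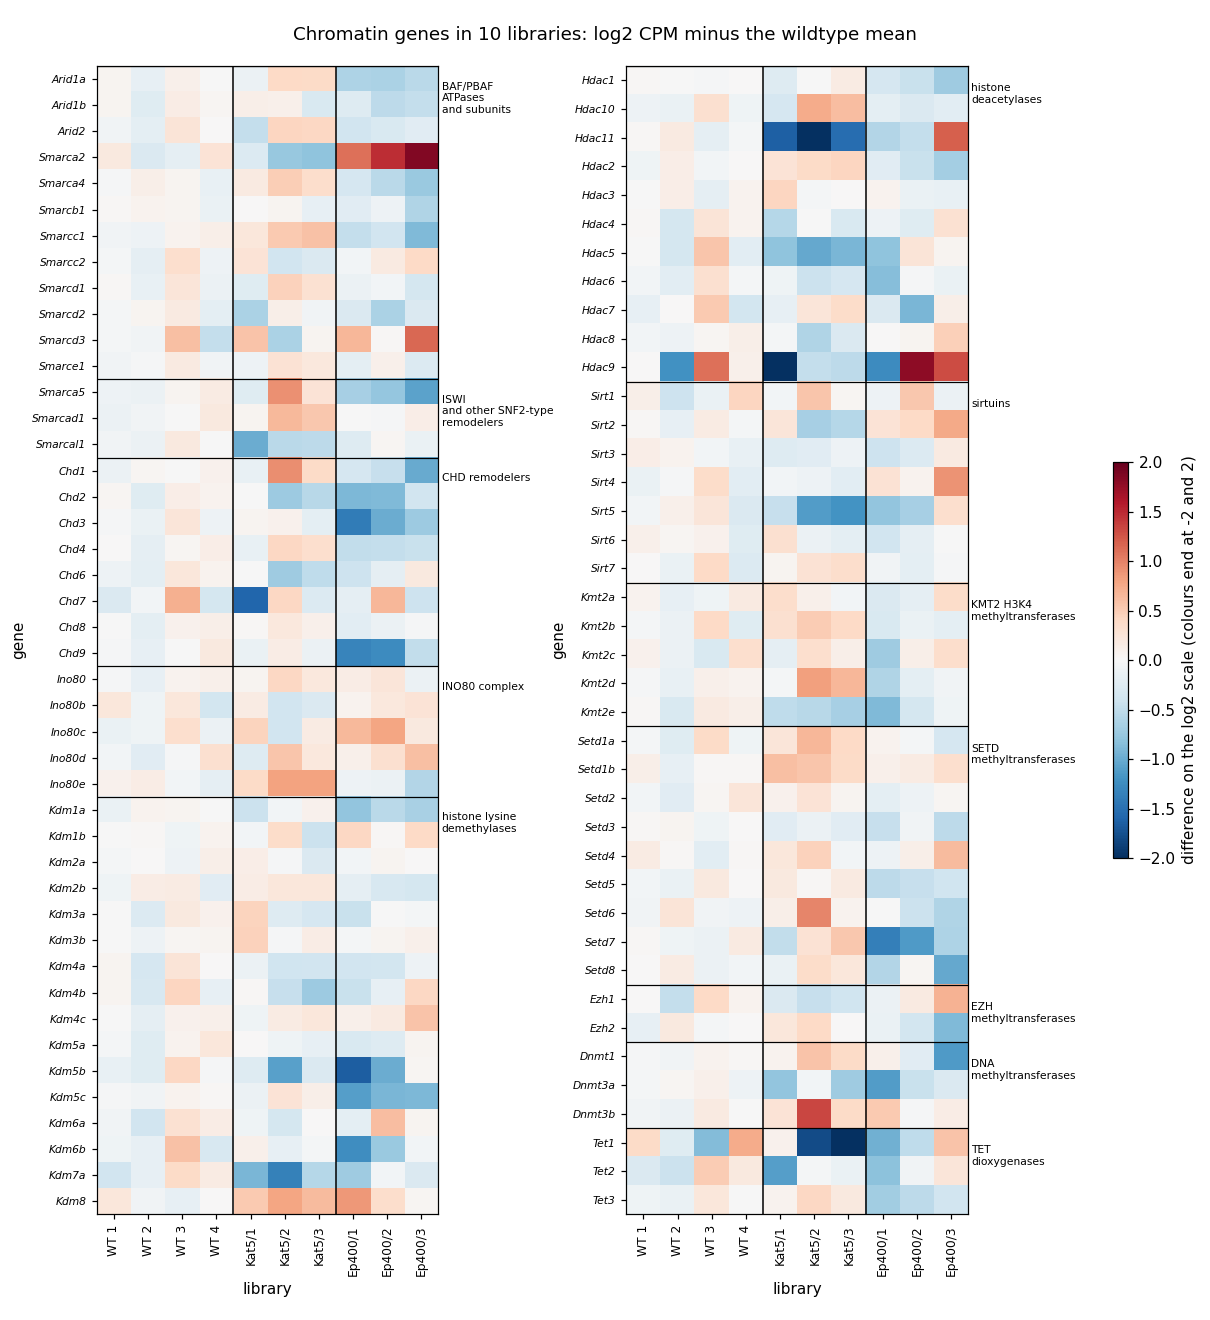
Levels of the 84 chromatin genes in each of the 10 libraries (columns), grouped by role, as log2 CPM minus the mean log2 CPM of the wildtype libraries; red is higher and blue lower, and colours end at -2 and 2. *Smarca2* is red and *Smarca5*, *Chd3*, *Kdm5c* and *Setd7* are blue in all 3 Ep400 ko clones, and *Hdac11* is blue in all 3 Kat5 ko clones.

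To see which chromatin genes changed without Ep400, the Ep400 ko clones were compared with wildtype cells. *Smarca2* rose and 8 genes fell: the remodeler genes *Arid1a*, *Smarca5*, *Chd2*, *Chd3* and *Chd9*, the demethylase genes *Kdm1a* and *Kdm5c* and the methyltransferase gene *Setd7*. These are 1 of 84 genes called higher and 8 of 84 called lower when edgeR's quasi-likelihood p, adjusted after Benjamini and Hochberg over all genes tested, may reach 0.05, where 8.0% of all 13836 genes were called higher and 5.72% lower. For 2 of the 84 genes all clones were higher than any wildtype library and for 21 all were lower, against 14.3% and 16.0% of all genes. At an unadjusted p of at most 0.05, 3 genes were higher and 19 lower, against 18.0% and 14.2% of all genes. Without wildtype library 1 or 4, 3 of the 84 genes were called lower in either case, where 2.32% and 2.58% of all genes were, and without wildtype library 2 it was 5 (2.83% of all genes). Leaving out wildtype library 3, clone Ep400/1 or clone Ep400/3 gave 2 genes called higher, where 7.17%, 8.17% and 6.72% of all genes were. The median log2-fold change was −0.14 over the 84 genes and 0.043 over all genes tested. The 84 genes had to reach a mean of 50 counts in wildtype cells, and the genes tested did not. Genes low in wildtype cells and higher in clones are thus left out of the 84, here and in the comparisons below. *Chd5*, just below the limit, had 40 to 58 counts in wildtype libraries and 94, 69 and 175 in the Ep400 ko clones. A smaller share called higher among the 84 can therefore not be read as a trait of chromatin genes. The clones are the replicates here, so that the p-values measure the spread between clones and between wildtype samples. The wildtype samples are not described as clones, and the study describes no cloned or mock-edited control. Effects of editing and of growth from a single cell can thus not be told apart from those of the knockout in the comparisons with wildtype. Differences are given below as log2-fold changes ± SE.

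*Smarca2* (ENSMUSG00000024921, chromosome 19 from 26605050 to 26778322) encodes Brm, the alternative ATPase of BAF complexes. It was at 50.3, 36.0, 38.6 and 53.4 CPM in the wildtype libraries and at 94.3, 122 and 160 CPM in clones Ep400/1, Ep400/2 and Ep400/3. All clones lay above the wildtype range, and the difference was 1.54 ± 0.22 (edgeR adjusted p = 0.00528), or 2.91-fold. Taken as a whole, chromosome 19 was shifted by a median of 0.26, 0.23 and 0.18 on the log2 scale in these clones, and with such chromosome shifts removed the log2-fold change of *Smarca2* was 1.33 and still past the threshold. The 2 antisense genes that overlap *Smarca2* had mean levels of at most 0.0607 CPM in any group.

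Its paralog *Smarca4* (ENSMUSG00000032187, chromosome 9 from 21616169 to 21704230), which encodes Brg1, the main BAF ATPase in many progenitor cells, was at 262, 289, 278 and 240 CPM in wildtype cells and at 211, 183 and 159 CPM in the Ep400 ko clones. All clones lay below the wildtype range, but the gene did not pass the threshold (−0.49 ± 0.15, edgeR adjusted p = 0.0585). Chromosome 9 was shifted the other way, by 0.16, 0.034 and 0.12 in these clones. In levels per exon length, *Smarca2* made up 7.12% ± 1.79 (SD, n = 4) of the sum of both ATPase genes in wildtype cells, and this share was 23.8% ± 7.21 (SD, n = 3) without Ep400. The share was 5.36% to 9.19% in wildtype libraries and 16.9%, 23.3% and 31.3% in the clones, so that the ranges did not overlap. *Smarca4* remained the larger of the pair in all libraries. The sum of both genes fell within 40.7 to 47.1 RPKM in wildtype cells and 35.8 to 39.2 RPKM in the clones, so that these ranges also stayed apart.

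Of the 12 genes for BAF and PBAF subunits, 1 was called higher and 1 lower, where 8.0% and 5.72% of all genes were. The median log2-fold change of the 12 was −0.26. *Arid1a* (ENSMUSG00000007880, chromosome 4 from 133679008 to 133756769), a subunit that defines canonical BAF, fell from 157, 134, 161 and 149.99 CPM to 98.1, 96.8 and 104 CPM (−0.55 ± 0.12, edgeR adjusted p = 0.0238). Its clones spread less than the wildtype samples, with SDs of 3.80 and 11.9 CPM. Chromosome 4 was shifted the other way, by 0.12, 0.072 and 0.10, and with chromosome shifts removed *Arid1a* was at −0.65. The alternative subunit *Arid1b* was at 59.1 to 71.0 CPM in the clones and 71.5 to 94.2 CPM in wildtype cells (−0.38, edgeR adjusted p = 0.103), and its share of the pair was 36.7% ± 2.62 against 33.9% ± 0.944. The scaffold subunit *Smarcc1* was at 148, 158 and 111 CPM in the clones against 191 to 221 CPM in wildtype cells (−0.52, adjusted p = 0.0576 from edgeR), while its paralog *Smarcc2* was at 186 to 255 CPM against 170.5 to 245 CPM. The share of *Smarcc2* in the summed RPKM of this pair was 64.0% to 76.5% in the clones and 53.4% to 61.8% in wildtype cells. For the core subunits *Smarcb1* and *Smarce1* and for *Smarcd1*, clones and wildtype libraries overlapped.

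**Figure D2:**
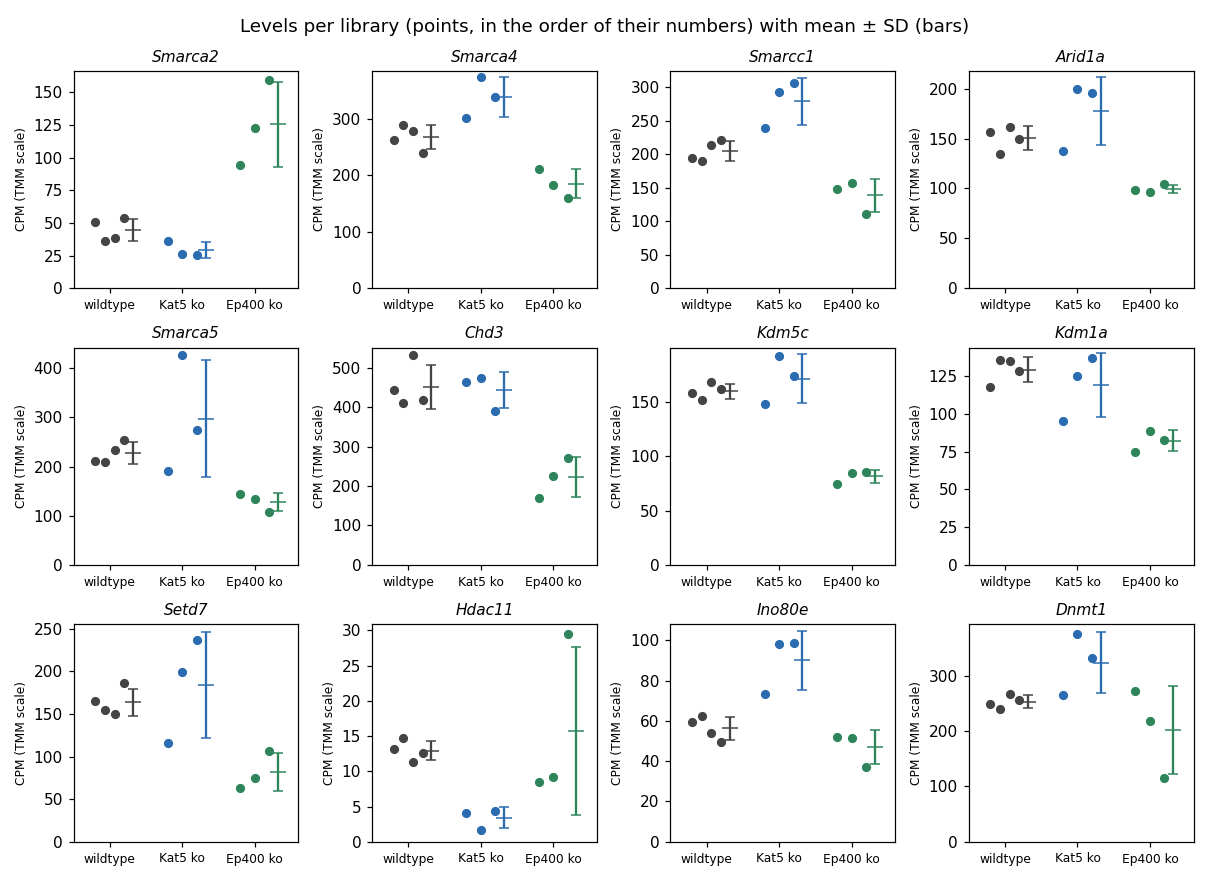
CPM per library (vertical axes, from 0) of 12 chromatin genes in wildtype cells and the knockout clones of *Kat5* and *Ep400*; points are libraries and bars are mean ± SD (n = 4, 3 and 3). The 3 Ep400 ko clones lie at 94.3 to 160 CPM for *Smarca2*, above all other libraries, and at 74.2 to 85.2 CPM for *Kdm5c*, below all other libraries.

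Among the remodelers outside BAF, the ISWI ATPase gene *Smarca5* (ENSMUSG00000031715, chromosome 8 from 80698507 to 80739497), known as Snf2h, was at 212, 210, 235 and 255 CPM in wildtype cells and at 144, 133 and 108 CPM in the Ep400 ko clones. All clones lay below the wildtype range (−0.78 ± 0.15, edgeR adjusted p = 0.0138). Chromosome 8 was shifted by −0.24, −0.044 and −0.20 in the clones, and with chromosome shifts removed *Smarca5* was still past the threshold at −0.62. *Smarca1*, the other ISWI ATPase gene, was below the limit of counts, with 6, 17, 1 and 12 counts in the wildtype libraries and 74, 18 and 75 counts in the Ep400 ko clones. It gave 0.141% of the summed RPKM of the pair in wildtype cells and 1.37% in these clones. *Smarcad1* and *Smarcal1*, SNF2-type enzymes that act at replicating or damaged DNA, overlapped with wildtype cells.

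The CHD genes had the lowest median of the remodeler families, with a log2-fold change of −0.49. Of the 8 genes, 3 were called lower and 0 higher, where 5.72% and 8.0% of all genes were. *Chd5*, below the limit of counts, is not among the 8. *Chd3* (ENSMUSG00000018474, chromosome 11 from 69343273 to 69369406), a NuRD ATPase gene, was at 443, 411, 532 and 417 CPM in wildtype cells and at 170, 225 and 271 CPM in the clones (−0.98 ± 0.20, edgeR adjusted p = 0.0169). Chromosome 11 was shifted by −0.19, −0.24 and −0.26, and with chromosome shifts removed *Chd3* was past the threshold at −0.73. Its paralog *Chd4* was at 339 to 348 CPM in the clones and 421 to 520 CPM in wildtype cells, with no overlap, but missed the threshold (−0.43, edgeR adjusted p = 0.0665). The sum of both was 113 ± 9.42 RPKM in wildtype cells and 69.0 ± 6.63 RPKM in the clones.

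*Chd9* (ENSMUSG00000056608, chromosome 8 from 90828352 to 91054516) was at 47.6 to 60.8 CPM in wildtype cells and at 21.4, 22.1 and 38.0 CPM in the clones (−0.93 ± 0.23, edgeR adjusted p = 0.0317). With chromosome shifts removed it was at −0.76 and no longer past the threshold, and its call held in 1 of the 7 fits that left out 1 library. *Chd2* (ENSMUSG00000078671, chromosome 7 from 73426638 to 73541830) was at 72.9 to 93.7 CPM in wildtype cells and at 46.1, 46.4 and 66.0 CPM in the clones (−0.66 ± 0.18, edgeR adjusted p = 0.0405), and its call likewise held in 1 of these 7 fits. *Chd1*, which reads trimethylated H3K4, did not pass the threshold at −0.54 (edgeR adjusted p = 0.0665) although its clones lay below the wildtype range. *Chd7*, the gene of CHARGE syndrome, spread widely within groups, from 31.5 to 65.8 CPM in wildtype cells and from 30.4 to 64.4 CPM in the clones.

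None of the 5 INO80 genes was called. The largest difference was that of *Ino80c*, with 52.5, 57.4 and 38.0 CPM in the clones against 30.4 to 42.1 CPM in wildtype cells (0.59, edgeR adjusted p = 0.0714), and 4 of the 5 genes had positive log2-fold changes.

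Of the 16 demethylase genes, 2 were called lower and 0 higher, where 5.72% and 8.0% of all genes were. *Kdm5c* (ENSMUSG00000025332, chromosome X from 152233020 to 152274535), which removes methyl groups from H3K4, was at 158, 151, 168 and 162 CPM in wildtype cells and at 74.2, 84.5 and 85.2 CPM in the clones. Its SDs were 6.87 CPM in wildtype cells and 6.13 CPM in the clones, and the difference was −0.93 ± 0.12 (edgeR adjusted p = 0.00457). The X chromosome was shifted by −0.28, −0.086 and −0.11, and with chromosome shifts removed *Kdm5c* was past the threshold at −0.78. *Kdm1a* (ENSMUSG00000036940, chromosome 4 from 136550540 to 136602723), the demethylase Lsd1 of the CoREST complex, was at 118 to 136 CPM in wildtype cells and at 75.0, 88.9 and 82.4 CPM in the clones (−0.61 ± 0.13, edgeR adjusted p = 0.0185). With chromosome shifts removed, *Kdm1a* was at −0.71. *Luzp1* overlaps *Kdm1a* on the opposite strand and had means of 71.6 CPM in wildtype cells and 92.4 CPM in the clones, so that it differed the other way.

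The H3K27 demethylase genes *Kdm6a* and *Kdm6b* overlapped between clones and wildtype cells. *Kdm5a*, *Kdm5b*, *Kdm2a* and the *Kdm3* and *Kdm4* genes did as well, and *Kdm5b* was at 23.7, 37.2 and 76.5 CPM in the clones, against 62.9 to 99.4 CPM in wildtype cells. None of the 11 deacetylase genes and none of the 7 sirtuin genes was called. *Hdac1* and *Hdac2*, the catalytic subunits of NuRD, Sin3 and CoREST, were lower in all clones (82.9 to 108 CPM against 134 to 137 CPM, and 103 to 141 CPM against 156 to 181 CPM), with adjusted p of 0.0518 and 0.0953 from edgeR. Their shares of the pair were 50.9% and 49.1% in the clones and 51.6% and 48.4% in wildtype cells. *Sirt2* was above the wildtype range of 52.7 to 66.2 CPM in all clones, at 71.3, 77.7 and 99.4 CPM (0.53, edgeR adjusted p = 0.0564).

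Among the histone and DNA methyltransferase genes of the 84, 1 was called, *Setd7*. *Setd7* (ENSMUSG00000037111, chromosome 3 from 51515319 to 51560879) monomethylates H3K4 and several non-histone proteins, and fell from 165, 154, 150.02 and 186 CPM to 63.2, 74.7 and 106 CPM (−0.96 ± 0.20, edgeR adjusted p = 0.0177). The 5 *Kmt2* genes overlapped with wildtype cells, as did the Polycomb methyltransferase genes *Ezh2* and *Ezh1*. The share of *Ezh1* in the pair was 20.5%, 27.2% and 43.2% in clones Ep400/1, Ep400/2 and Ep400/3, against 13.7% to 25.7% in wildtype cells. *Dnmt1*, which copies DNA methylation after replication, was at 240 to 267 CPM in wildtype cells and at 273, 218 and 115 CPM in the clones in the same order. The summed level of 20 cell cycle genes was 3983, 3089 and 1739 CPM in these clones and 3909 to 4255 CPM in wildtype cells, so that the lowest *Dnmt1* level and the lowest sum were in the same clone. The de novo methyltransferase gene *Dnmt3a* was at 17.7 to 31.7 CPM in the clones, below the wildtype range of 35.9 to 41.5 CPM (−0.53, edgeR adjusted p = 0.123). *Tet3*, whose product oxidizes methylated cytosine, lay below the wildtype range in all clones (46.0 to 57.2 against 68.0 to 86.9 CPM, −0.49, edgeR adjusted p = 0.0577).

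For the lists that follow, 8.0% of all genes were called higher and 5.72% lower in the same comparison. Among 20 cell cycle genes, 1 was called lower in the Ep400 ko clones, *Top2a*, and all 20 had negative log2-fold changes (median −0.47). Among 13 hypoxia genes tested, 4 were called lower (*Hk2*, *Ldha*, *P4ha1* and *Ero1l*), and their sum was 956 to 1272 CPM in the clones and 1999 to 2683 CPM in wildtype cells. The sum of 19 crest and mesenchyme genes was 2806 to 4001 CPM in the clones and 1781 to 2129 CPM in wildtype cells. Of 17 tested, *Snai2*, *Tfap2a*, *Pax3*, *Pdgfra* and *Pdgfrb* were called higher and *Nt5e* lower. All clones lay above the wildtype range for 7 of these genes and below it for 3, among them *Snai1* (13.9 to 16.8 against 17.6 to 24.5 CPM). *Prrx1* was at 877 to 2099 against 656 to 971 CPM and *Pdgfra* at 511 to 631 against 106 to 138 CPM. *Pax3* had only 3 to 7 counts in wildtype libraries and 290, 42 and 253 in the clones. The 8 neuron markers summed to 7.36 to 28.2 CPM in the clones and 3.18 to 6.19 CPM in wildtype cells. Of 3 tested, *Tubb3* and *Stmn2* were called higher, which held in 1 and 2 of the 7 fits that left out 1 library. *Tubb3* was at 5.01 CPM in clone Ep400/3 and at 4.96 CPM in wildtype library 1. Among those not tested, *Elavl4* went the other way, with at most 0.476 CPM in wildtype libraries and 0.0467 CPM in the clones. Sums of epithelial markers (10 genes) were at most 4.95 CPM and those of endothelial (6) and blood markers (5) at most 7.74 CPM in any library, and *Krt8*, *Krt18* and *Pecam1* were called lower in the Ep400 ko clones. Of 8 bone and cartilage markers, *Acan* was called lower (18.5 CPM in wildtype cells and 0.0725 CPM in the clones). With 1 library left out, *Hk2*, *Ero1l* and *Acan* held in all 7 fits and *Krt18* in 6. *Ldha* held in 4, *Krt8* and *Pecam1* in 3, and *Top2a* and *P4ha1* in 2. The part of the differences in these lists in the chromatin genes' values was not tested.

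**Figure D3:**
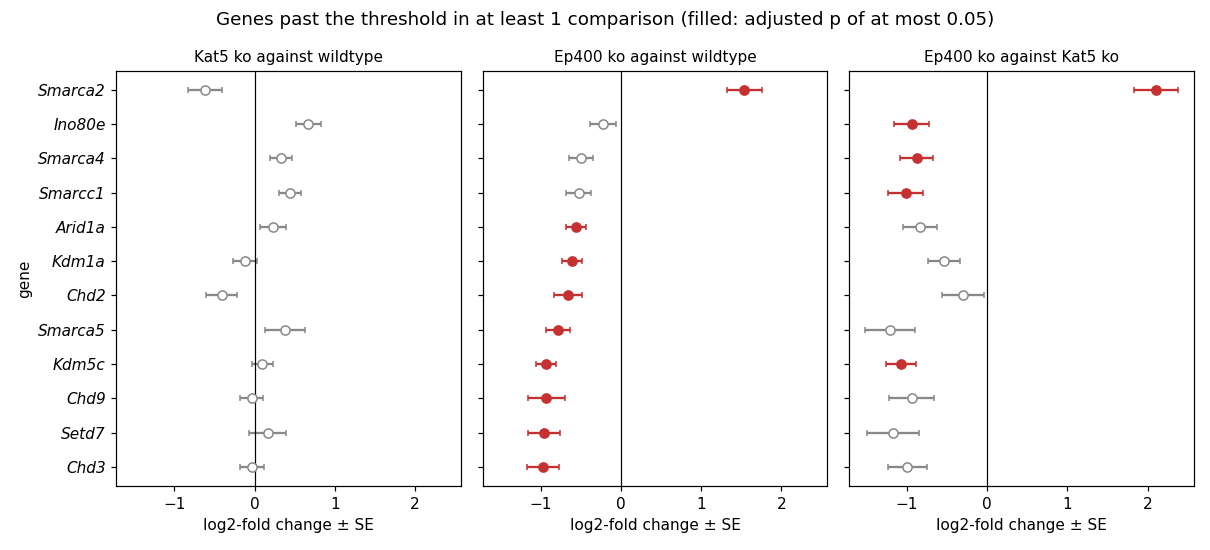
Log2-fold changes with standard errors (horizontal axes) of the 12 chromatin genes past the threshold in at least 1 of the 3 comparisons (panels); filled red points passed the threshold of edgeR. In the Ep400 ko clones, *Smarca2* lies at 1.54 against wildtype and the called decreases lie between −0.98 and −0.55.

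Partners of these enzymes were taken from lists of known complex subunits. Of 11 further BAF and PBAF subunits tested, *Brd9* of the noncanonical BAF complex rose (means of 34.4 and 58.1 CPM, 0.80 ± 0.14, edgeR adjusted p = 0.0100) and *Phf10* of PBAF fell (123 and 65.9 CPM, −0.86 ± 0.19, edgeR adjusted p = 0.0216). Of 8 ISWI partners, *Baz1a* fell from 76.6 ± 7.94 to 26.5 ± 11.1 CPM (−1.49, edgeR adjusted p = 0.0149) and *Baz2a* by less (−0.54). Of 17 partners of NuRD, Sin3 and CoREST, 16 had negative log2-fold changes and 3 were called lower, *Rcor2* (69.2 ± 18.9 to 23.9 ± 3.94 CPM, −1.49, edgeR adjusted p = 0.00844), *Mta1* and *Mta3*. The median of this list was −0.32, and 5.72% of all genes were called lower.

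Among 23 Polycomb partners, *Ring1* rose (0.84) and *Cbx2* fell (−0.59), and the list had a median of 0.016. *Psip1* fell among 12 COMPASS partners (−0.68). Of 15 other histone methyltransferase genes, *Suv420h1* (1.04) and *Setmar* (0.94) rose and *Ehmt1* (−0.43) and *Ehmt2* (−0.53), which encode the H3K9 enzymes GLP and G9a, fell. Of 11 genes of DNA methylation, the glycosylase gene *Tdg* fell from 33.9 ± 1.10 to 18.3 ± 5.65 CPM (−0.84, edgeR adjusted p = 0.0336). Of these partner calls, *Brd9*, *Baz1a* and *Rcor2* held in all 7 fits that left out 1 library. *Suv420h1* held in 5, *Phf10* in 4, *Ring1* in 3, and *Psip1* and *Tdg* in 2. *Baz2a*, *Mta3*, *Cbx2* and *Ehmt2* held in 1, and *Mta1*, *Ehmt1* and *Setmar* in 0.

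The same question was asked for Kat5. Against wildtype, 0 of the 84 genes were called higher and 0 lower by edgeR in the Kat5 ko clones, where 0.179% of all 13434 genes were called higher and 0.447% lower. At an unadjusted p of at most 0.05, 9 genes were higher and 8 lower, against 10.7% and 11.6% of all genes. DESeq2 called 3 higher and 6 lower, against 3.77% and 6.01% of the 14218 genes it gave an adjusted p, and limma-voom called 0 and 1, against 0.141% and 0.514% of all genes. Clones did not overlap with wildtype cells for 7 genes that were higher and 8 that were lower, against 8.79% and 10.8% of all genes. The median log2-fold change of the 84 genes was 0.05, and that of all genes was 3.2e-05.

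The smallest p was that of *Hdac11* (ENSMUSG00000034245, chromosome 6 from 91156665 to 91174692), the class IV deacetylase, which was at 13.1, 14.7, 11.4 and 12.5 CPM in wildtype cells and at 4.09, 1.73 and 4.40 CPM in clones Kat5/1, Kat5/2 and Kat5/3. All clones lay below the wildtype range, yet the gene missed the threshold (−1.92 ± 0.34, edgeR adjusted p = 0.0555). *Hdac5*, a class IIa deacetylase, was at 105, 89.96 and 96.9 CPM against 144 to 269.6 CPM (−0.96, edgeR adjusted p = 0.0769). *Ino80e*, an INO80 subunit, was at 73.3, 98.3 and 98.4 CPM against 49.3 to 62.4 CPM (0.67, edgeR adjusted p = 0.0783).

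*Smarca2* was at 36.3, 26.0 and 25.2 CPM in the Kat5 ko clones, which overlapped with the wildtype range in clone Kat5/1 alone (−0.62, edgeR adjusted p = 0.146), and chromosome 19 was shifted by −0.10, −0.23 and −0.34 in these clones. Its share of the *Smarca4* and *Smarca2* pair was 5.19%, 3.06% and 3.26%, against 5.36% to 9.19% in wildtype cells. *Smarca4* (302, 373 and 339 CPM) and *Smarcc1* (240, 293 and 306 CPM) lay above the wildtype range in all clones, with log2-fold changes of 0.33 and 0.44 that did not pass the threshold. The share of *Dnmt3b* in the summed RPKM of the DNA methyltransferase genes *Dnmt3a* and *Dnmt3b* was 31.1%, 36.6% and 31.9% against 16.2% to 18.8%, though *Dnmt3b* itself had 112, 201 and 154 counts only. The share of *Hdac2* was 53.0% to 57.7% in the clones and 46.6% to 50.7% in wildtype cells.

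The calls depended on clone Kat5/1, among the 84 genes as among all genes. Without it, 9 of the 84 genes (10.7%) were called higher and 10 (11.9%) lower in the 2 remaining clones, near the 9.83% and 9.54% of all genes, so that these counts are no result about the chromatin genes. The decreases without it were those of *Hdac11* (−2.07), *Tet1* (−2.07), *Sirt5* (−1.20), *Hdac5* (−1.02), *Smarca2* (−0.80), *Chd2*, *Kmt2e*, *Chd6*, *Sirt2* and *Smarcal1*. The increases were those of *Ino80e* (0.80), *Kmt2d* (0.74), *Chd1* (0.68), *Hdac10* (0.67), *Smarcad1*, *Smarcc1*, *Dnmt1*, *Setd1b* and *Hdac2*. Of the smooth muscle genes that mark this clone, *Acta2* was at 506 CPM there and at 0.457 and 20.5 CPM in the other Kat5 ko clones, and the sum of the 20 cell cycle genes was 4122 CPM against 5851 and 5464 CPM. The part of either in the result was not tested. In the complex partner lists, no gene was called for Kat5.

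To ask whether the knockouts differed from each other, the Ep400 ko clones were compared directly with the Kat5 ko clones, which does not use the wildtype libraries that the comparisons above share. *Smarca2* was called higher, and *Smarcc1*, *Smarca4*, *Ino80e* and *Kdm5c* were called lower in the Ep400 ko clones. These are 1 and 4 of the 84 genes, where 4.22% of all 13587 genes were called higher and 2.83% lower by edgeR. At an unadjusted p of at most 0.05, 6 genes were higher and 22 lower, against 16.3% and 16.0% of all genes. Clones did not overlap for 8 genes that were higher and 26 that were lower, against 19.8% and 18.9% of all genes. The median log2-fold change was −0.20 over the 84 genes and 0.0063 over all genes. With scaling by library size alone, the median of all genes was 0.14 and that of the 84 genes −0.073, and 1 gene was called higher and 2 lower, against 4.64% and 1.75% of all genes.

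*Smarca2* differed by 2.10 ± 0.27 (edgeR adjusted p = 0.0211). With chromosome shifts removed it was 1.68. *Smarcc1* (ENSMUSG00000032481, chromosome 9 from 110117708 to 110240178) was at 138.6 ± 24.8 CPM in the Ep400 ko clones and 279.6 ± 35.1 CPM in the Kat5 ko clones (SD, n = 3 each), with wildtype cells between them at 205 ± 14.8 CPM (−1.02 ± 0.22, edgeR adjusted p = 0.0420). *Smarca4* likewise had wildtype cells between the knockouts (−0.88 ± 0.20, edgeR adjusted p = 0.0479). *Kdm5c* differed by −1.07 ± 0.19 (edgeR adjusted p = 0.0313), with the Kat5 ko clones at 147 to 192 CPM.

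*Ino80e* (ENSMUSG00000030689, chromosome 7 from 126850960 to 126862377) was at 52.2, 51.6 and 37.1 CPM in the Ep400 ko clones, so that it differed from the Kat5 ko clones by −0.94 ± 0.22 (edgeR adjusted p = 0.0474). *Hirip3* overlaps it on the opposite strand and moved the same way, with means of 35.4 CPM in the Ep400 ko clones, 59.15 CPM in the Kat5 ko clones and 51.0 CPM in wildtype cells. *Hdac11* had the largest log2-fold change among the genes that missed the threshold, 2.2 (edgeR adjusted p = 0.0638), and clone Ep400/3 was at 29.5 CPM where the other Ep400 ko clones were at 8.52 and 9.19 CPM. The calls of this comparison rested on few clones. Leaving out clone Kat5/2 or Kat5/3, or any Ep400 ko clone, left 0 of the 84 genes called lower, and between 0% and 0.639% of all genes. *Smarca2* held as higher without clone Ep400/1 but not without any of the other 4 of these clones. Leaving out clone Kat5/1 gave 2 genes called higher and 16 lower, against 9.32% and 8.68% of all genes.

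Among the partner genes, *Baz1a* (−2.41), *Tdg* (−1.58), *Bcl7a* (−1.04), *Cbx2* (−0.99) and *Bmi1* (−0.89) were lower and *Ring1* (1.23) was higher in the Ep400 ko clones than in the Kat5 ko clones, all past the threshold in edgeR. The call of *Tdg* held in 2 of the 6 fits that left out 1 clone, and the other calls held in 1 each. All 20 cell cycle genes had negative log2-fold changes in this comparison, with a median of −0.87, though 0 of them were called and 12 had an unadjusted p of at most 0.05.

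**Figure D4:**
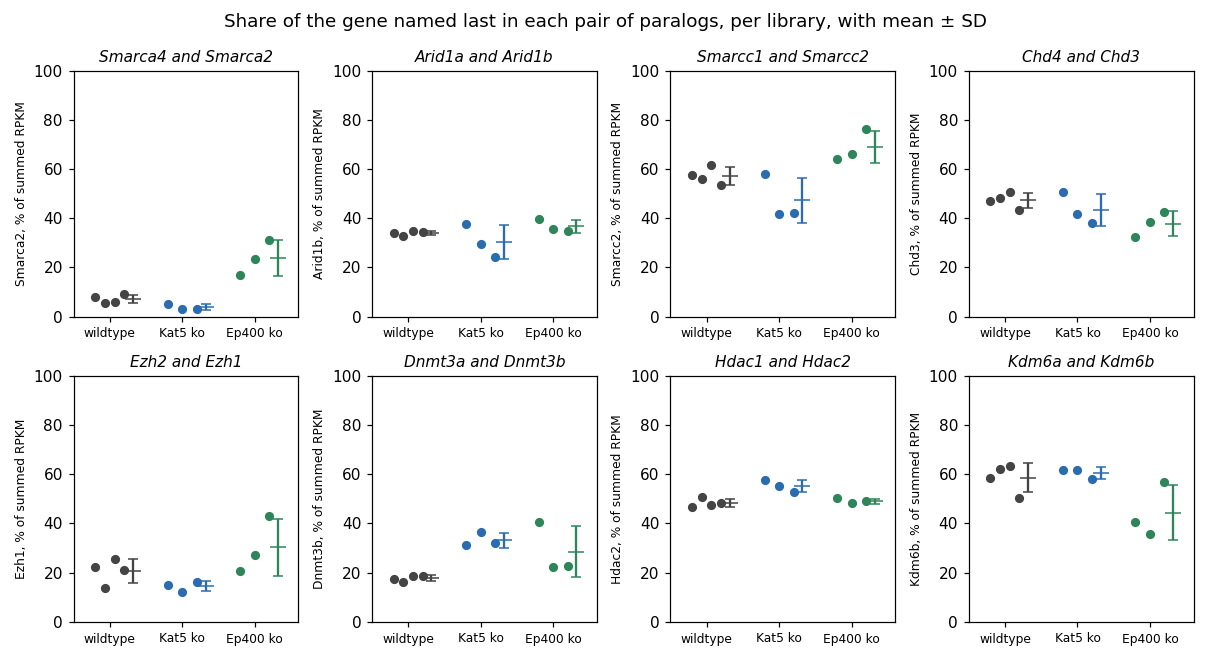
Share of the gene named last in the summed RPKM of 8 pairs of paralogs (vertical axes, percent, from 0 to 100) in each library, with mean ± SD for wildtype cells (n = 4), Kat5 ko clones (n = 3) and Ep400 ko clones (n = 3). *Smarca2* made up 5.36% to 9.19% of its pair in wildtype libraries, 3.06% to 5.19% in Kat5 ko clones and 16.9% to 31.3% in Ep400 ko clones.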

How the data were processed

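RNA-seq gene counts of 10 libraries were analysed. Per the labels and methods, libraries came from poly-A RNA and a stranded kit, and the authors mapped paired reads to mm10. The submitters' processing notes name bcl2fastq 2.20, STAR 2.7.3, R 4.2.1 and DESeq2 1.36.0. The deposited raw counts are whole reads per gene, and the annotation and strand setting used in counting are not given in the sources used here. The deposited normalized counts were not used. Samples were grouped by their labels.

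In R 4.3.3 with edgeR 4.0.16, each comparison was fitted over all genes (filterByExpr, TMM, robust quasi-likelihood test, Benjamini-Hochberg adjustment), on the libraries of its groups only. All 84 genes passed the filter in each comparison. A gene was called at an adjusted p of at most 0.05. CPM used the TMM scale of all 10 libraries, and RPKM the exon length in GENCODE M21 (GRCm38, the build mm10), from which coordinates were also taken. Genes of different length were compared by RPKM only. Chromosome shifts are medians, over the genes of a chromosome, of the log2 CPM (prior count 2) of a library minus the wildtype mean. Those removed in the fit between the knockouts were taken against the mean of the Kat5 ko clones instead. The procedure was tested on simulated counts.

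Named genes were the targeted genes, genes called, the 3 smallest p per comparison, the highest and lowest wildtype levels, pairs of paralogs, partners called (at most 3 a list) and members of short lists. Genes named beyond this rule, among them those called without clone Kat5/1, were chosen after their values were seen. The 84 genes and all lists were chosen with earlier results of these data known. Library totals were 30968945 to 48301792 counts, and counting error is largest for the lowest member, *Dnmt3b*, with 75 to 201 counts in a library. No 2 replicates were as close as sampling noise would make them (chi-square 28.1 to 258 for each degree of freedom), so all were kept apart. Alternatives were DESeq2 1.42.0, limma-voom (limma 3.58.1), other scalings and filters, 1 fit of all libraries, a replicate block, chromosome offsets and leaving out each library.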

Additional observations from a re-analysis of the deposited data

Results flagged for a closer look

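Among the 84 chromatin genes, the wildtype group had a single library far from the other 3 for 3 genes, or 3.57% of the groups examined, where chance gives about 1 in 20. *Setd6*, a methyltransferase gene, was at 20.7 CPM in wildtype library 2 and at 16.2 to 16.5 CPM in the others. *Hdac10* was at 27.9 CPM in wildtype library 3 and at 20.4 to 21.0 CPM in the others, and *Ino80c* was at 42.1 CPM in the same library and at 30.4 to 31.5 CPM in the others.

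The effects of the knockouts differed from each other, by the direct test of Ep400 ko against Kat5 ko clones in edgeR, for 5 genes. The difference in log2-fold change was 2.10 for *Smarca2*, −1.07 for *Kdm5c*, −1.02 for *Smarcc1*, −0.94 for *Ino80e* and −0.88 for *Smarca4*. For all 5 genes, the mean of the wildtype libraries lay between the means of the knockouts.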

How the results depend on the processing

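Of the log2-fold changes of the chromatin genes with an unadjusted p of at most 0.05 (67 gene and comparison pairs), 0 of 1044 values under an alternative changed direction, 69 lost and 98 gained the threshold, and 877 did neither. Against wildtype, *Smarca2*, *Kdm5c* and *Smarca5* stayed past the threshold in all 7 fits that left out an Ep400 ko or wildtype library, *Chd3* in 6, *Kdm1a* and *Setd7* in 5, *Arid1a* in 4, and *Chd2* and *Chd9* in 1. Between the knockouts, *Smarca2* stayed in 2 of 6 such fits and the 4 decreases in 1 each.

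For Kat5 against wildtype, DESeq2 called 3 genes higher and 6 lower, against 3.77% and 6.01% of the genes it gave an adjusted p. The limma-voom fit called 1 lower (0.514% of all genes) and the fit with no filter on low counts 2 lower (0.84%). For Ep400 against wildtype, DESeq2 called 2 higher and 15 lower, against 11% and 8.48% of the genes it gave an adjusted p. The fit of all 10 libraries called 5 lower, against 3.66% of all genes, and chromosome offsets 12 lower, against 5.17%. On the higher side, 5 genes (library size alone) or 4 (RLE) did not overlap with wildtype, where 2354 and 2158 of all 13836 genes did not. Between the knockouts, DESeq2 called 3 higher and 14 lower, against 11.5% and 7.67% of the genes it gave an adjusted p. The fit of all 10 libraries called 4 and 19, against 13.1% and 12.1% of all genes. No filter gave 2 higher (3.81% of all genes) and chromosome offsets 7 lower (3.11%). RLE, library size alone and CPM above 1 in 3 libraries gave 2 lower each, against 2.56%, 1.75% and 2.48% of all genes.

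The replicate number does not pair the libraries (correlations of residuals −0.0966 to 0.222). As a block it left 0 higher and 0 lower for Ep400 against wildtype and 2 higher and 0 lower between the knockouts in edgeR, and at an unadjusted p of at most 0.05 it gave 3 and 18, and 5 and 18; Kat5 against wildtype had 0 and 0, and 3 and 10.

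With 1 library left out, calls ranged from 0 to 9 higher and 0 to 10 lower for Kat5 (the highest without clone Kat5/1), from 1 to 2 and 3 to 10 for Ep400 (3 lower without wildtype library 1 or 4, and 5 without wildtype library 2), and from 0 to 2 and 0 to 16 between the knockouts (16 without clone Kat5/1). Genes that did not overlap ranged from 7 to 25 higher and 8 to 18 lower for Kat5. The highest came without clone Kat5/1, where 3136 and 3175 of all 13434 genes did not overlap. For Ep400 the range was 2 to 6 and 22 to 31. The 31 lower came without clone Ep400/3 (2952 of all 13836 genes) and the 6 higher without clone Ep400/1 (2753). Between the knockouts the range was 9 to 15 and 28 to 35, highest without clone Kat5/1 (4128 and 3996 of all 13587 genes). The log2-fold change of *Ep400* in the Kat5 ko clones, 0.15, was −0.043 without clone Kat5/2 and ranged up to 0.284. Causes were not tested.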
